A study of Mus musculus with 18 samples.

Results

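The 10 genes described here, Gfap, Aqp4, Slc1a2, Slc1a3, Aldh1l1, Aldoc, Gja1, Gjb6, Agt and Slc4a4, are commonly used to mark astrocytes, the star-shaped glia of the brain. They were chosen by name and are 10 of the 19937 genes that had a probeset of their own in the deposited table. Each was read by 1 probeset that the platform annotation paired with that gene alone, so taking the brightest probeset of a gene left no choice to make. The mean of every one of the 10 genes was above the median level of all genes, and so were the means of 23 of 23 measured genes of a second list of astrocyte genes, among them Hepacam, Acsbg1 and Sox9. Of 16 transcription factors that mark hypothalamic regions, 8 had a mean above that median, among them Isl1 and Lhx9, and whether the dimmer ones were detected cannot be judged from normalized values.

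The study measured RNA of mouse hypothalamus on 18 arrays and set mice mutant for wfs1 against wild-type mice. The genetic background is written 129SV on the samples and 129S6 in the series' design text, and all groups share it. Each array has a genotype field (KO or WT) and a sample title with an ending of its own (ko or wt), and these conflict on 9 of the 18 arrays. With the ending written first, 5 arrays were ko/KO, 5 were ko/WT, 4 were wt/KO and 4 were wt/WT. The labels name no age, sex, treatment or kind of mutation, and do not say whether an array is 1 animal or a pool. Differences are therefore judged against the scatter of arrays, which may in part be technical.

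The level of Wfs1, the gene the mutants are named for, lay in 2 separate sets of arrays that followed neither label: 10 arrays at 7.86 to 8.07 log2 units and 8 arrays at 8.36 to 8.72. The lower set held 2 ko/KO, 2 ko/WT, 3 wt/KO and 3 wt/WT arrays, and the upper set held 3 ko/KO, 3 ko/WT, 1 wt/KO and 1 wt/WT array. An array was never given a genotype from this level. Whether the value columns and the sample titles were matched correctly at deposit is not known, and a mismatch would change what every mean and difference by label below stands for. Array ko/WT 4 stood apart with Xist, the RNA of the inactive X chromosome, at 5.93, where the other 17 arrays had 10.31 to 10.79. Array wt/WT 3 stood apart with Ttr, a gene of the choroid plexus, at 12.8, where the others had 8.01 to 10.62. Array medians were 7.10 to 7.19, and the standard deviation (SD) of all values on an array was 1.93 to 2.04. Precision is limited by how many arrays each group holds.

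Astrocytes take up the glutamate and potassium that neurons release, couple to each other through gap junctions, feed neurons with products of glycolysis, and wrap blood vessels with endfeet that carry water and ion channels. Gfap encodes the intermediate filament of their cytoskeleton, which is known to become more abundant when astrocytes react to injury. In the hypothalamus, astrocytes and the related tanycytes also take part in sensing glucose and in controlling hormone release, and astrocytes are the main source of angiotensinogen in the brain.

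Promoter sequences are shown for Gfap, Agt, Gjb6 and Gja1, the genes of the most alike pair (Gjb6 and Agt) and the most opposed pair (Gfap and Gja1) in the deposited values. Each is the 180 bases before the RefSeq start site in build GRCm38.p6, read 5′ to 3′ on the gene's own strand, with matches to searched motifs in capitals. Gfap lies at chr11:102897201-102897380 on the minus strand, Agt at chr8:124569707-124569886 on the minus strand, Gjb6 at chr14:57133612-57133791 on the minus strand and Gja1 at chr10:56377120-56377299 on the plus strand.
Gfap: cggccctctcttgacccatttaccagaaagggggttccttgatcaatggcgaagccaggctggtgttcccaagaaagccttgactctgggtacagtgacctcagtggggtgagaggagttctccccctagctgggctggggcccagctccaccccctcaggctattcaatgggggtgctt
Agt: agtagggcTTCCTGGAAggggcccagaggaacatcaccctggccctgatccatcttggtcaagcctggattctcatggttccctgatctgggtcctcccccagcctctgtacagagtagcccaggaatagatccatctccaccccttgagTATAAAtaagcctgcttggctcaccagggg
Gjb6: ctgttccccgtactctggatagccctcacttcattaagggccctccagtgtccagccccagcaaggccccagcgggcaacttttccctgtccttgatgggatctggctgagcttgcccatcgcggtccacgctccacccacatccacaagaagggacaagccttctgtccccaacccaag
Gja1: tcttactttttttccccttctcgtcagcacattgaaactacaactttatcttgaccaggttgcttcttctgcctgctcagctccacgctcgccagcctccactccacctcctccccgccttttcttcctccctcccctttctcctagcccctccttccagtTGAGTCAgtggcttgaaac

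Motifs were searched on both strands in the 250 bases before each start, for which 9 of the 10 genes had 11 windows. The palindrome TTCNNNGAA, the element that STAT factors bind, was in 3 of the 11 windows and in 7.02% of all 32841 windows. Its match in Agt began at position -172 from the start, and the other matches were in a window of Aldoc and in that of Slc1a3. The stricter form TTCCNNGAA, whose matches are all also matches of the first, was in the same 3 windows and in 4.06% of all windows. The AP-1 motif TGANTCA was in 1 of the 11, at position -19 of Gja1, and in 6.75% of all windows. The TATA-box letters TATAAA were in the windows of Agt (position -30) and Slc1a3 and in 12.4% of all windows. In Slc1a3 they were at position -161 and on the opposite strand, as TTTATA. The windows of Gfap and Gjb6 held none of these letters. A match describes the letters in the window and was not tested as a binding site.

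Gfap varied most of the 10 genes. On the ko/KO arrays its log2 level was 9.14, 8.66, 8.87, 9.35 and 9.03, and on the ko/WT arrays 9.12, 8.55, 9.11, 8.63 and 8.87. On the wt/KO arrays it was 9.12, 9.32, 9.13 and 9.14, and on the wt/WT arrays 9.11, 8.91, 9.23 and 8.69. Values under 8.9 occurred in every group but wt/KO, values over 9.1 occurred in all 4, and the ranges of ko/WT and wt/KO met only at 9.12. The highest array was 1.74-fold above the lowest. The SD of 0.24 over 18 arrays was larger than that of 98.5% of the 9968 genes above the median level, whose median SD was 0.11.

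Aqp4 and Slc4a4 encode proteins of the endfeet and the cell membrane, the water channel aquaporin-4 and an electrogenic sodium bicarbonate cotransporter. Aqp4, on chromosome 18, had the second largest spread, with a lowest value of 9.40, a median of 9.63 and a highest value of 10.05 (SD 0.19, above that of 95.2% of the same genes). Its 4 highest arrays came from 3 groups, ko/KO 1 (10.05), ko/WT 5 (9.97), wt/WT 4 (9.93) and ko/KO 5 (9.90). Slc4a4, on chromosome 5, had a lowest value of 10.32 on ko/KO 2, a median of 10.56 and a highest value of 10.68 on ko/KO 5 (SD 0.11).

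The glutamate transporters were the steadiest genes of the list. Slc1a2 (GLT-1), which clears most synaptic glutamate in the forebrain, ran between 11.76 and 12.05 with a median of 11.91. Its SD of 0.070 was above that of only 5.93% of genes above the median level. Slc1a3 (GLAST) ran between 10.96 and 11.24 with a median of 11.14 (SD 0.083), and its highest array was 1.21-fold above its lowest.

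Gja1 and Gjb6 encode connexins, the gap junction proteins that join astrocytes to each other. Gja1 ran between 10.73 and 11.20 with a median of 10.97 (SD 0.13). Gjb6 ran between 8.71 and 9.23 with a median of 8.95 (SD 0.15). Both were highest on array ko/KO 5.

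Aldh1l1, a folate enzyme used as a pan-astrocyte marker, ran between 8.89 and 9.40 with a median of 9.09 (SD 0.14). Aldoc, the brain form of the glycolytic enzyme aldolase, had a lowest value of 12.88 on ko/KO 2 and a highest of 13.24 on ko/WT 5 (SD 0.10). Agt, which encodes the secreted precursor of the angiotensins, had a lowest value of 11.15 on wt/WT 4, a median of 11.44 and a highest of 11.78 on ko/KO 4 (SD 0.17, above that of 89.8% of genes above the median level). For 8 of the 10 genes the lowest array was ko/KO 2, wt/WT 1 or wt/WT 2, the exceptions being Gfap and Agt. In bulk tissue, fewer astrocytes and less of the RNA per astrocyte cannot be told apart.

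**Figure D1:**
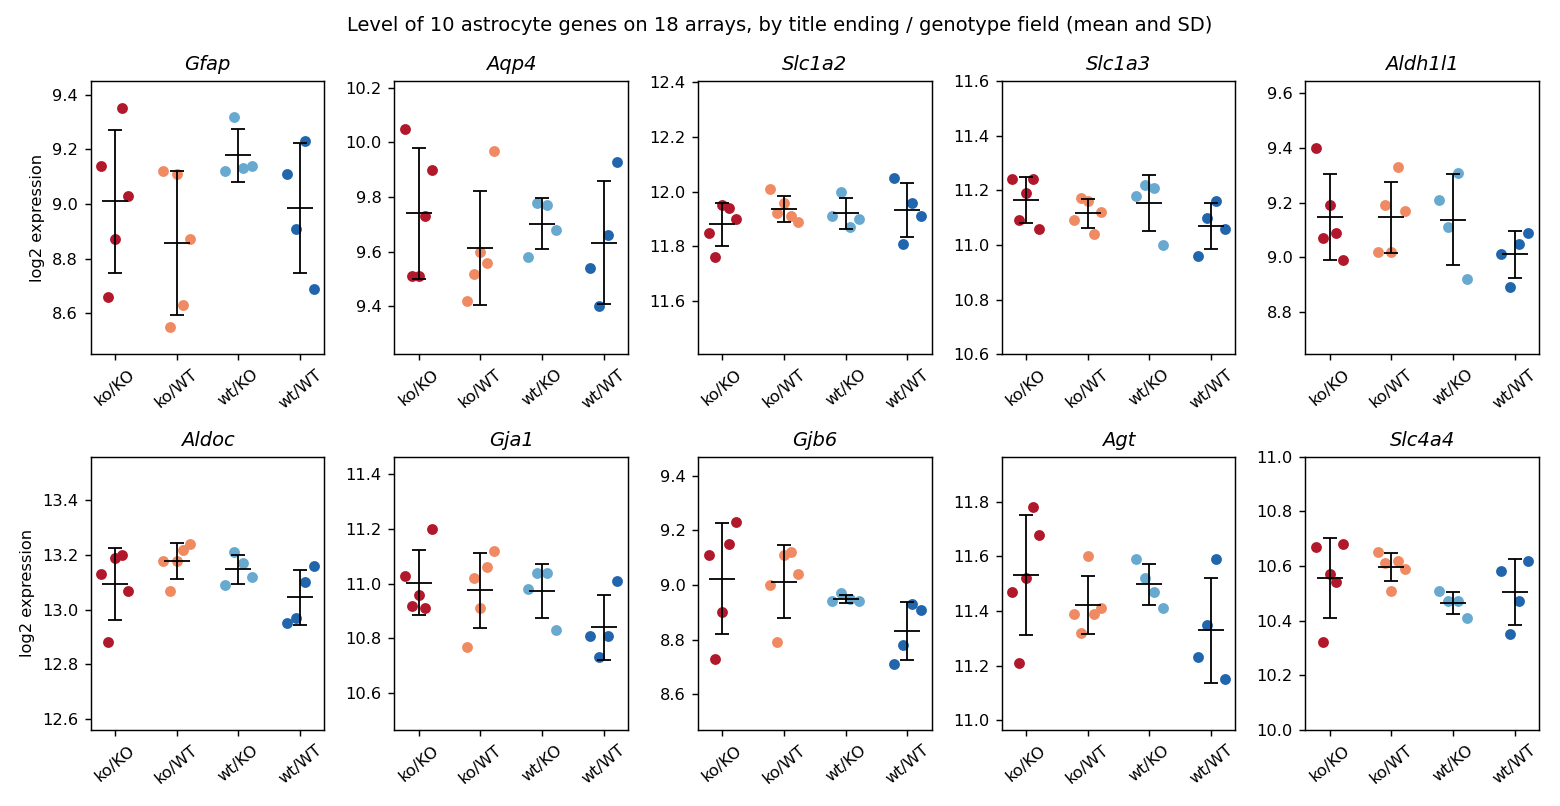
Log2 expression (vertical axes, each spanning 1 log2 unit) of the 10 genes on the ko/KO, ko/WT, wt/KO and wt/WT arrays, 1 point per array, with the mean and SD of each group as bars (n = 5, 5, 4 and 4). The groups overlap in most panels, and Gfap and Aqp4 show the widest scatter, with SDs of 0.24 and 0.19 over all arrays. For Gjb6 the wt/KO arrays (8.94 to 8.97) and the wt/WT arrays (8.71 to 8.93) do not overlap, but only by the last digit given. The difference between these groups was not tested, and how many of all genes separate likewise was not counted.

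The comparison the study was built for, mutant against wild type, was made by each label in turn, on the arrays whose labels match and on the arrays whose labels conflict. None of the 10 genes passed the threshold of a Benjamini-Hochberg adjusted p of 0.05 in any of these 4 comparisons (limma), and neither did any other gene: 0% of 19937 genes were called in each. The comparisons share arrays, so their values are not independent of one another. Without adjustment, p fell under 0.05 for 923 genes (4.63%) by the title ending, 1386 (6.95%) by the genotype field, 2218 (11.1%) where the labels match and 546 (2.74%) where they conflict. Of the 10 genes, 0, 0, 0 and 2 were among them in the same order of comparisons.

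By the title ending, the mean of 8 of the 10 genes was higher, and of 2 lower, on ko arrays, with a median difference of 0.052 log2 units. Over all genes 51.7% were higher with a median of 0.003, and with the dimmest 40% of genes left out, where all 10 remain, 66.8% were higher with a median of 0.023. The median of the 10 was 0.028 without wt/WT 1, 0.031 without ko/KO 4 and 0.018 with the SD of all values on an array as a covariate, an alternative chosen after seeing the data. Gjb6 had 8.73, 9.08 and 9.23 as lowest, median and highest on the ko arrays, against 8.71, 8.94 and 8.97 on the wt arrays. The 3 lowest arrays of Gjb6 carried both endings, and the 7 highest values lay on ko arrays. The difference was 0.13 (95% interval -0.0054 to 0.26, unadjusted p = 0.0593, adjusted p = 0.884, limma). Gfap averaged 8.93 ± 0.26 on ko arrays (SD, n = 10) and 9.08 ± 0.20 on wt arrays (SD, n = 8), a difference of -0.15 (95% interval -0.36 to 0.061, adjusted p = 0.884, limma). The other 8 genes differed by -0.017 (Slc1a2) to 0.091 (Slc4a4).

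By the genotype field, 7 of the 10 genes had a higher mean in KO and 3 a lower one, with a median difference of 0.061. Over all genes 47.2% were higher with a median of -0.0056, and with the dimmest 40% left out 62.5% were higher with a median of 0.018. The median of the 10 was 0.033 with quantile normalization and 0.030 with the array SD as a covariate. The difference of Gfap here had the opposite sign, 9.08 ± 0.21 on KO arrays and 8.91 ± 0.25 on WT arrays (SD, n = 9 each), a difference of 0.17 (95% interval -0.032 to 0.37, adjusted p = 0.695, limma). Agt averaged 11.52 on KO arrays and 11.38 on WT arrays, a difference of 0.14 (SE 0.070, adjusted p = 0.694, limma). The other 8 genes differed by -0.04 (Slc4a4) to 0.10 (Aqp4).

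Where both labels match, the ko/KO mean exceeded the wt/WT mean for 9 of the 10 genes and was below it for Slc1a2, with a median difference of 0.10. Over all genes 49.5% were higher with a median of -0.0015, and with the dimmest 40% left out 68.5% were higher with a median of 0.047. The median of the 10 was 0.058 without ko/KO 1 and 0.064 without wt/WT 2, and with quantile normalization 6 of the 10 were higher and 4 lower with a median of 0.051. Agt had 11.47, 11.21, 11.52, 11.78 and 11.68 on the ko/KO arrays, against 11.23, 11.35, 11.59 and 11.15 on the wt/WT arrays. The groups overlapped, and ko/KO 2 lay below 3 of the 4 wt/WT arrays. The difference of Agt was 0.20 (95% interval -0.052 to 0.46, adjusted p = 0.515, limma). Gja1 had 11.03, 10.92, 10.96, 10.91 and 11.20 on the ko/KO arrays, against 10.81, 10.73, 10.81 and 11.01 on the wt/WT arrays. Only wt/WT 4 of the 4 wt/WT arrays reached into the ko/KO range, and the difference was 0.16 (95% interval -0.021 to 0.35, adjusted p = 0.480, limma). Gjb6 differed by 0.19 (95% interval -0.031 to 0.41, adjusted p = 0.494, limma).

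The SD of all values on an array moved with this last comparison. The wt/WT group held the array with the lowest SD (wt/WT 2, 1.93) and another low one (wt/WT 1, 1.96), and the ko/KO group held 1 (ko/KO 2, 1.95), where the other 15 arrays had 1.99 to 2.04. With the array SD as a covariate, 5 of the 10 genes were higher and 5 lower in ko/KO, with a median difference of 0.0073.

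Where the labels conflict, 6 of the 10 genes had a higher mean on the ko/WT arrays than on the wt/KO arrays and 4 a lower one, with a median difference of 0.006. Over all genes 53% were higher with a median of 0.0055, and with the dimmest 40% left out 49.7% were higher with a median of 0. The median of the 10 turned to -0.054 without wt/KO 4, to -0.018, -0.015 and -0.005 without ko/WT 4, ko/WT 5 and ko/WT 2, and to -0.035 with array weights. Gfap had the largest difference of the 10, -0.32 (SE 0.12, 95% interval -0.58 to -0.061, unadjusted p = 0.0198, adjusted p = 0.9998, limma), with ko/WT at 8.86 ± 0.26 (SD, n = 5) and wt/KO at 9.18 ± 0.095 (SD, n = 4). All 5 ko/WT values, 8.55 to 9.12, were at or below the lowest wt/KO value of 9.12. Without array ko/WT 4, the one low in Xist, the difference was -0.27. Slc4a4 differed the other way, with 10.60 on ko/WT and 10.47 on wt/KO arrays, a difference of 0.13 (SE 0.052, unadjusted p = 0.0288, adjusted p = 0.9998, limma). Its ranges also met at 1 value only, with 10.51 to 10.65 on ko/WT and 10.41 to 10.51 on wt/KO arrays. How many of all genes have ranges that overlap as little was not counted. The difference between the endings was also compared between the KO and WT fields, and 0% of genes and 0 of the 10 passed (5.18% of genes had an unadjusted p under 0.05, and the lowest value among the 10 was 0.0738, for Aldoc, limma).

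**Figure D2:**
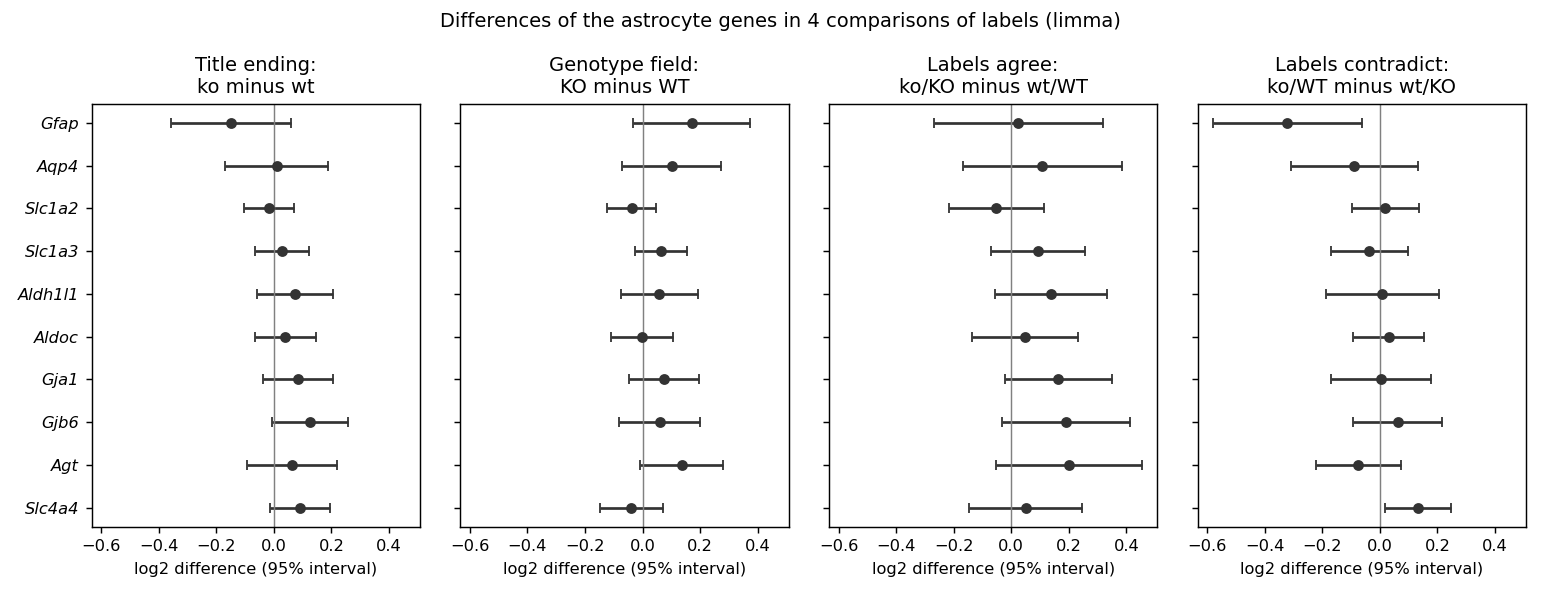
Log2 differences of the 10 genes (points) with 95% intervals from limma (bars) in the 4 comparisons: ending ko minus wt, field KO minus WT, ko/KO minus wt/WT and ko/WT minus wt/KO. Gfap lies below 0 by the ending (-0.15) and above 0 by the field (0.17), and only Gfap and Slc4a4 in the last panel have intervals that leave out 0, with adjusted p = 0.9998 for both in limma.

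The other lists of astrocyte genes gave no calls either. Of the 23 further astrocyte genes, 0 passed in any comparison. With the ending ko, 20 had a higher mean and 3 a lower mean (median difference 0.031). Over all genes 51.7% were higher (median 0.003), and with the dimmest 40% left out 66.8% (median 0.023). By the field 18 were higher and 5 lower (median 0.026), and where labels match 19 and 4 (0.0735). Where labels conflict 11 were higher and 12 lower (-0.01). Of 17 measured genes that are known to be induced in reactive astrocytes, 0 passed. By the ending 8 were higher and 9 lower (median -0.011), and by the field 12 were higher and 5 lower (median 0.046). Over all genes 47.2% were higher by the field (median -0.0056). Of 13 genes of glutamate recycling, 10 of the endfoot complex and 7 other connexins, 0 passed in any comparison, with medians by the ending of 0.051, 0.016 and 0.05. Of 6 genes of the renin-angiotensin system, of 10 of acid-base transport and of 11 of glycolysis and folate metabolism, 0 passed, with medians of -0.014, 0.028 and 0.012. Some genes, such as Hepacam, stand in more than 1 of these lists.

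The 10 genes moved together over the arrays only in part. Among their 45 pairs the median Pearson correlation was 0.36, with a range of -0.24 to 0.70, and 4 pairs had an adjusted p under 0.05 (permutation test, adjusted over the 45 pairs). A correlation of at least 0.5 was found in 9 pairs, which is 20% of the 45. The same was true of 14.4% of all pairs of genes above the median level and of 8.59% of all pairs of genes.

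Gjb6 and Agt were the most alike (r = 0.70, rho = 0.64, permutation p = 0.00134, adjusted p = 0.0416, and 0.0869 for rho). Both were low on ko/KO 2 (8.73 and 11.21) and wt/WT 1 (8.71 and 11.23) and high on ko/KO 5 (9.23 and 11.68) and ko/KO 4 (9.15 and 11.78). Aldoc and Gjb6 followed (r = 0.67, rho = 0.61, adjusted p = 0.0416). Their r was 0.44 without the 2 arrays farthest from the median of Aldoc, wt/WT 1 and ko/KO 2, and 0.59 to 0.82 with each array left out in turn. Aqp4 and Gja1, the endfoot channel and the main gap junction protein, had r = 0.66 (rho = 0.62, adjusted p = 0.042), and 0.62 without the 2 farthest arrays. Gfap and Agt had r = 0.65 (rho = 0.60, adjusted p = 0.042), and 0.68 without the 2 farthest arrays.

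Other pairs of related genes had lower correlations. The glutamate transporters Slc1a2 and Slc1a3 had r = -0.09 (rho = -0.0099, permutation p = 0.723, adjusted p = 0.766). The connexins Gja1 and Gjb6 had r = 0.51 (rho = 0.48, adjusted p = 0.162), and 0.26 without the 2 farthest arrays. Gfap and Gja1 were the most opposed pair (r = -0.24, rho = -0.24, adjusted p = 0.53).

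These 4 calls depended on how the correlation was taken. With rank correlation, with quantile normalization, or without the 2 farthest arrays of each pair, 0 pairs had an adjusted p under 0.05, and within the 4 label groups 4 pairs did. Leaving out 1 array, namely ko/WT 3, ko/KO 2, wt/KO 1, ko/KO 4, wt/KO 3, wt/WT 2 or ko/WT 5, also left 0 pairs. Without wt/WT 4 there was 1 pair, without wt/WT 1 or wt/KO 2 there were 2, without ko/WT 4 there were 5 and without wt/WT 3 there were 3.

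**Figure D3:**
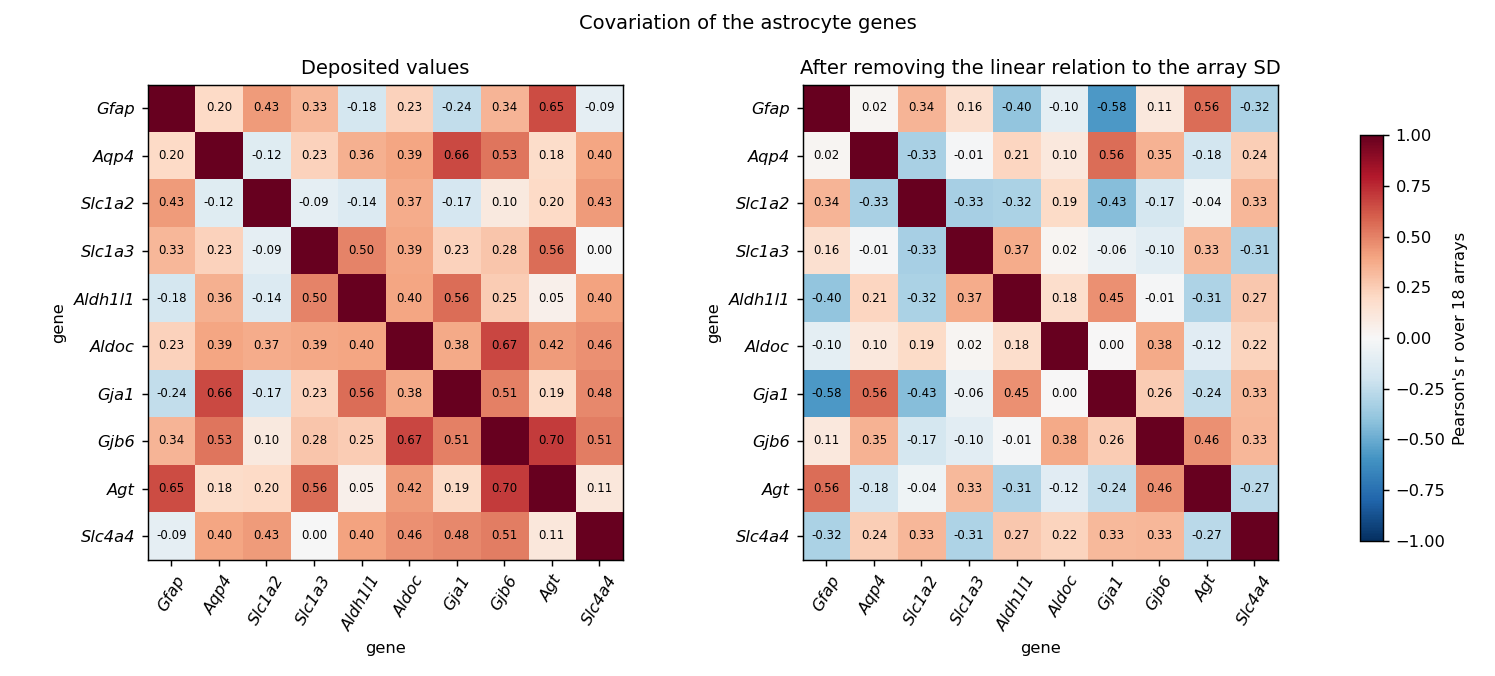
Pearson's r between the 10 genes over 18 arrays (colour and printed value) for the deposited values (left) and after removing the straight-line relation of each gene to the SD of all values on an array (right). On the left the highest pair is Gjb6 and Agt at 0.70, and on the right Gfap and Agt and also Aqp4 and Gja1 stay at 0.56 while Gfap and Gja1 fall to -0.58.

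The mean of the 10 genes, each standardised over the arrays, followed the spread of all values on the array (r = 0.85 over 18 arrays, a description with no test). It was lowest on ko/KO 2 (-1.30), wt/WT 2 (-1.21) and wt/WT 1 (-0.65), the 3 arrays with the lowest array SD, and highest on ko/KO 1 (0.81). Over all genes, 22.3% had r of at least 0.5 with this mean and 19.8% had -0.5 or less. Brightness moved with it too: the median r with the array SD was -0.42 in the dimmest of 4 equal bins of genes by mean level and 0.42 in the brightest. Of the 10 genes, 5 had r of at least 0.5 with the array SD, beside 31.2% of all genes above the median level.

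Aldoc (r = 0.72, rho = 0.52), Agt (r = 0.67, rho = 0.79) and Gjb6 (r = 0.66, rho = 0.63) had the highest r with the array SD, each with an adjusted p of 0.00923 for r (permutation test, adjusted over the 10 genes). For rho the adjusted p was 0.002 for Agt, 0.0337 for Gjb6 and 0.0642 for Aldoc (permutation test). Slc1a3 had a higher rho than Aldoc (0.57, adjusted p = 0.0499, permutation test). Without the 3 arrays of lowest SD, r was 0.62 for Agt, 0.23 for Gjb6 and 0.056 for Aldoc. After the straight-line relation to the array SD was removed from each gene, an alternative chosen after seeing the data, 2 of 45 pairs had r of at least 0.5, beside 8.82% of pairs of genes above the median level and 5.22% of all pairs. These were Gfap with Agt and Aqp4 with Gja1, both at 0.56 (adjusted p = 0.254, permutation test). Gfap and Gja1 then had r = -0.58 (permutation p = 0.0129, adjusted p = 0.254).

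**Figure D4:**
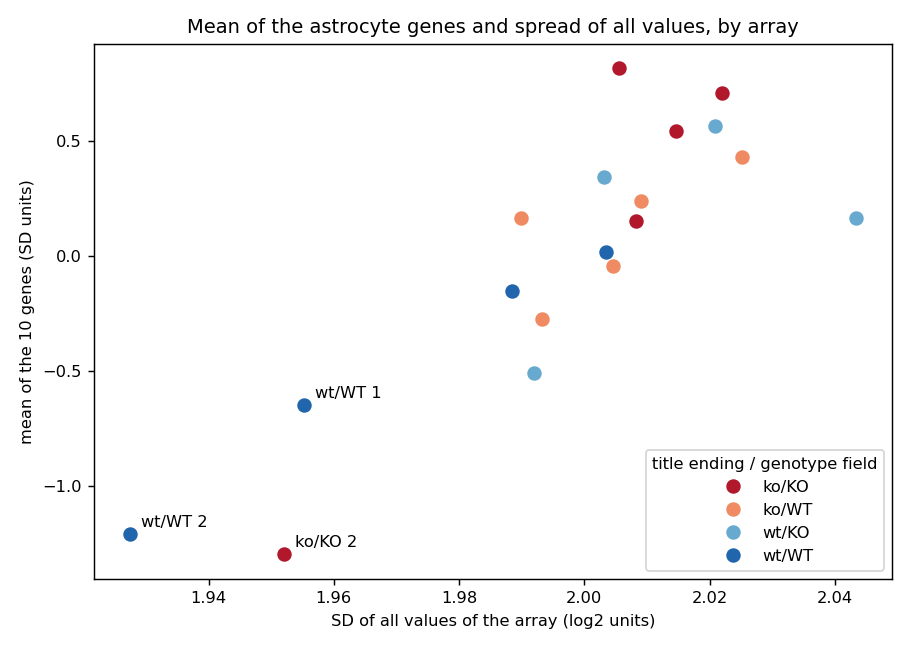
Mean of the 10 standardised genes (vertical axis, SD units) against the SD of all values of the array (horizontal axis, log2 units), 1 point per array, coloured by title ending and genotype field. Arrays ko/KO 2, wt/WT 1 and wt/WT 2 lie at the lower left, with array SDs of 1.95, 1.96 and 1.93 and means of -1.30, -0.65 and -1.21.

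The gene most like each of the 10 over the 18 arrays was outside the 10, as was likely beforehand with 19936 genes compared. It was Thbs2 for Gfap (r = 0.86), Itm2a for Aqp4 (0.91), Itgav for Slc1a2 (0.87), Dbnl for Slc1a3 (0.89) and Tfb1m for Aldh1l1 (0.93). It was Rexo4 for Aldoc (0.90), Lix1 for Gja1 (0.91), Cdc25a for Gjb6 (0.91), Qpct for Agt (0.85) and Grm3 for Slc4a4 (0.89). The nearest of the 10 to each other stood between place 63 (Agt, for Gfap) and place 1912 (Gjb6, for Slc4a4) among all genes ordered by r. Each named gene had the highest of 19936 correlations over the same 18 arrays, with predicted genes passed over. The arrays share the spread described above, and no test was made of these correlations. How often genes drawn at random would reach such places was not tested, so the places do not say how alike the 10 are.

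The genes above the median level closest to the mean of the 10 were Ift80 (r = 0.93), Mob1a, Nnt, Arl14ep, Pgm3, Uso1, Mrfap1, Mtx3, Pitrm1 and Wdr17 (0.91), and the farthest were Hrk (-0.90), Foxe3, C2cd4c, Col2a1 and Col9a2 (-0.87). The r of the first 10 with the array SD was 0.69 to 0.83. Among the lists, the mean of the 23 further astrocyte genes was closest to the mean of the 10 (r = 0.81), with Hepacam at 0.89, Acsbg1 at 0.86 and Sox9 at 0.72 and the transporter Slc7a10 at -0.15. Lists of other cells followed it as well: endothelial and mural cells with r = 0.69, neurons with 0.61, oligodendrocyte precursors with 0.58, microglia with 0.48 and oligodendrocytes with 0.48. Ependymal cells and tanycytes (-0.57), transcription factors of hypothalamic regions (-0.54) and choroid plexus (-0.33) ran the other way. The meningeal list had 0.26 and the thalamic list 0.17. The mean of the 23 further astrocyte genes had r = 0.77 with the array SD, the highest of the lists. For single genes this r was 0.72 for Hepacam, 0.79 for Acsbg1, 0.79 for Sox9 and -0.12 for Slc7a10. With the array SD, the lists of other cells that followed had r of 0.37 (oligodendrocytes) to 0.71 (neurons). Ependymal cells and tanycytes had -0.43 with it, hypothalamic factors -0.43 and choroid plexus -0.37.

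Reactive astrocyte genes had correlations of both signs with the mean of the 10. Their own mean had r = 0.25 with it. Of the 17, 5 had r of at least 0.5, beside 22.3% of all genes, and 8 were below 0. A mean above the median level was found for 5 of the 17. Stat3, a transcription factor of the reactive state, had r = 0.88 and ran between 9.07 and 9.36, and Socs3, an inhibitor that STAT3 induces, had r = -0.65 and ran between 7.26 and 7.83. Cp (ceruloplasmin) had r = 0.83 and S100a10 had 0.62. In the renin-angiotensin system, the receptor gene Agtr1a had r = -0.61 and Atp6ap2, the prorenin receptor, had 0.57. These genes also followed the array SD, with r of 0.79 for Stat3, 0.63 for Cp and 0.67 for S100a10. It was -0.59 for Socs3, -0.64 for Agtr1a and 0.59 for Atp6ap2.

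The 10 genes were then set beside the level of Wfs1 on the same arrays. The sets below and above 8.2 log2 units are sets of arrays and not genotypes, so medians and ranges are given with no test. For 0 of the 10 genes were the ranges of the sets separate, as for 0.015% of all genes. Medians differed by 0.2 or more for 1 of the 10, Gfap, as for 2.01% of all genes and 1.15% of genes above the median level.

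Gfap had a median of 9.12 on the 10 arrays below 8.2 and 8.78 on the 8 arrays above it, a difference of 0.34. Below the line, 9 arrays had 9.03 to 9.35 and wt/WT 2 had 8.91. Above it, 6 arrays had 8.55 to 8.87, and wt/KO 3 and ko/KO 1 had 9.13 and 9.14. The difference was 0.25 to 0.43 with each array left out in turn, 0.25 without ko/WT 4 and 0.34 without wt/WT 3. The array SD had a median of 2.007 below the line and 1.998 above it.

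Aldh1l1 ran the other way, with 9.02 (8.89 to 9.21) below the line and 9.19 (9.07 to 9.40) above it, a difference of -0.17. Of the 10 arrays below the line, 7 lay under every array above it. Gja1 had 10.87 (10.73 to 11.20) below and 11.03 (10.92 to 11.12) above, a difference of -0.16, again with 7 of 10 under every array above, and ko/KO 5 over all of them. Agt had 11.56 (11.23 to 11.78) below and 11.40 (11.15 to 11.52) above, a difference of 0.16, and 5 arrays below the line exceeded every array above it. The share of all genes with as many arrays beyond the other set was not counted, so these counts do not set the genes apart.

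The other 6 genes differed by less than 0.1 in the median: -0.09 for Slc4a4, -0.055 for Aldoc, 0.05 for Slc1a2, -0.035 for Aqp4, 0.025 for Gjb6 and -0.015 for Slc1a3. In all, 4 of the 10 genes had a higher median below the line and 6 a lower one, with a median difference of -0.025 beside -0.005 over all genes. Within each set, the level of each gene was correlated with that of Wfs1, 20 relations in all. None had an adjusted p under 0.05 (exact permutation test for the 8 arrays above, 100000 permutations for the 10 below, lowest adjusted p = 0.388). Slc1a2 (r = -0.71, rho = -0.63, exact permutation p = 0.0314, adjusted p = 0.388) and Aldoc (r = -0.67, rho = -0.72, exact permutation p = 0.0439, adjusted p = 0.388), both above the line, had an unadjusted p under 0.05. Without the 2 farthest arrays r was -0.37 for Slc1a2 and -0.64 for Aldoc.

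Markers of other cells also differed between the sets. All 13 measured oligodendrocyte genes, each with a mean above the median level of all genes, had a lower median below the line, with a median difference of -0.19 between -0.27 (Mal) and -0.095 (Mobp). Their mean level was 9.45 to 9.80 on the arrays below and 9.66 to 9.99 on the arrays above. Over all genes, 45.8% had a higher median below the line, with a median difference of -0.005. Of 12 genes of a thalamic list, 9 had a lower median below the line (median -0.12), with mean levels of 9.55 to 9.85 below and 9.62 to 9.93 above. Of the 23 further astrocyte genes, 9 were higher and 14 lower below the line with a median of -0.01, and the reactive genes had 9 higher and 7 lower with a median of 0.01. The part that oligodendrocyte content or the borders of the dissection had in the differences of Gfap, Aldh1l1, Gja1 and Agt was not tested.

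**Figure D5:**
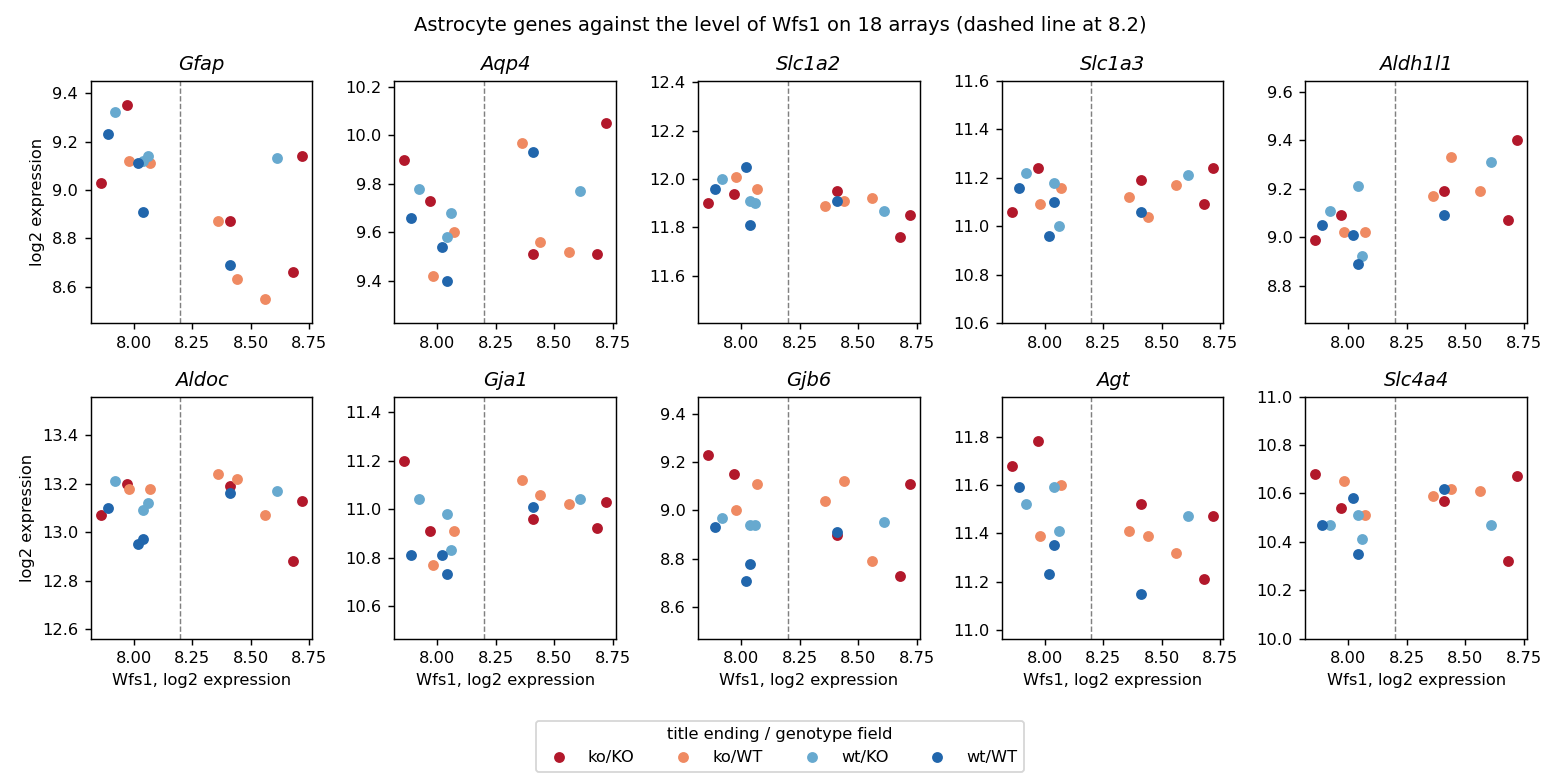
Log2 expression of the 10 genes (vertical axes, each spanning 1 log2 unit) against that of Wfs1 (horizontal axes), 1 point per array, coloured by title ending and genotype field, with a dashed line at 8.2. Gfap is at 8.91 to 9.35 left of the line and at 8.55 to 8.87 on 6 of 8 arrays right of it, and every gene overlaps between the sides.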

How the data were processed

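The deposited table holds 1 value per probeset and array for 18 arrays of biotin-labelled hypothalamic RNA. The values are read here as log2 expression normalized by the authors before it was deposited, since they run from 1.11 to 14.54 with like medians. RMA and MAS5 are named, per the submitters' processing notes, with no role, order or version. RMA, where used, sets all arrays on a common distribution. Scanner files, the array model and scan dates were not used here.

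Of 34760 probesets, the platform annotation gave 21640 a single gene, 1321 several and 11799 none. RefSeq matched 21553 of them and changed 0 symbols. The brightest probeset per gene left 19937 genes. Differences were fitted with limma 3.58.1 (R 4.3.3) without covariates, on the groups of each comparison, with Benjamini-Hochberg adjustment over all genes. The fit was tested on simulated data. Correlations have two-sided permutation tests (100000 resamples, exact with fewer than 10 arrays), adjusted within their family. Arrays were numbered within a group in the order of the samples. The alternatives were quantile normalization, median centring, the mean of probesets, leaving out the dimmest 40% of genes, array weights, a 4-group fit, and leaving out each array.

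The genes, the other lists and the tests were chosen with earlier results of these data known. All 10 genes are named. Of each other list, at most the 3 genes with the highest and the 1 with the lowest correlation with the mean of the 10 are named, and over all genes the 10 highest and 5 lowest, with predicted genes passed over. Mal and Mobp, as the ends of a range, were named after their values were seen, as were Xist and Ttr.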

Additional observations from a re-analysis of the deposited data

Results flagged for a closer look

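Gfap on array wt/KO 2 was 9.32, apart from the other 3 wt/KO arrays at 9.12 to 9.14. The gap was 0.9 of the range of the group, above Dixon's 95% critical value of 0.829 for 4 samples. It was the only value set apart among 40 combinations of gene and group, and chance sets apart about 1 in 20. The array is not the highest of all for Gfap, since ko/KO 4 had 9.35.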

How the results depend on the processing

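No gene was called by limma in any of the 4 comparisons under any setting, and the lowest adjusted p of the 10 genes was 0.132. Of their 40 differences, 29 kept their sign under every setting run, and Slc1a2 where labels conflict was 0 without ko/WT 1. The other 10 turned sign as follows, all without a call. With quantile normalization: Aqp4 by the ending (-0.018), and where labels match Gfap (-0.032), Aldoc (-0.0054) and Slc4a4 (-0.0023). With array weights: Aqp4 by the ending (-0.049), Aldoc by the field (0.021), and where labels conflict Aldh1l1 (-0.025) and Gja1 (-0.046). In the 4-group fit: Aldoc by the field (0.0093). With the array SD as a covariate: Aqp4 by the ending (-0.024), Gjb6 by the field (-0.0045), and where labels match Gfap (-0.11), Aqp4 (-0.041), Aldoc (-0.056) and Slc4a4 (-0.046), where the median of the 10 differences moved to 0.0073. Leaving out each array gave ranges across 0 for Aqp4 (-0.032 to 0.047) and Slc1a2 (-0.034 to 0.00043) by the ending, Aldoc by the field (-0.022 to 0.029), Gfap (-0.073 to 0.11) and Slc4a4 (-0.00067 to 0.11) where labels match, and Aldh1l1 (-0.064 to 0.066) and Gja1 (-0.044 to 0.055) where they conflict. The count of correlated pairs, 4 as deposited, was 0 with rank correlation, 0 with quantile normalization, 0 after the array SD, 0 without the 2 farthest arrays, and 0 to 5 with each array left out. The causes were not tested. No paired analysis was possible because the labels give no replicate number that arrays of different groups share. Detection above background could not be judged from normalized values, so nothing here says that a dim gene is absent.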

Other observations

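Oligodendrocyte genes, which the report sets beside the level of Wfs1, also had 1 direction by the ending and where labels match. By the field 9 of the 13 were higher and 4 lower. All 13 had a mean above the median level of all genes. With the ending ko, 13 of 13 had a higher mean (median difference 0.078), beside 51.7% of all genes (median 0.003). With the dimmest 40% of genes left out, 66.8% were higher by the ending (median 0.023). Where labels match, 13 of 13 were higher in ko/KO (median 0.094), beside 49.5% of all genes (median -0.0015). With the dimmest 40% left out, 68.5% were higher there (median 0.047). In either comparison 0 were called by limma. Choroid plexus genes had a lower mean on ko/KO arrays, set against wt/WT, for 10 of 10 (median -0.20, lowest -1.66), again with 0 called. Of these 10, 2 had a mean above the median level, and 49.5% of all genes were higher in this comparison. That share was 68.5% with the dimmest 40% left out, so it was lower among the dimmest genes. It was not counted for genes as dim as these, so the direction cannot be read as particular to the list. The part of array wt/WT 3, with Ttr at 12.8, was not tested. By the ending and by the field 9 of the 10 were lower and 1 higher. Where labels conflict 5 were higher and 5 lower (median 0.023). Of 16 transcription factors of hypothalamic regions, 15 had a lower mean with the ending ko (median -0.063, 0 called). Of the 16, 8 had a mean above the median level, and 51.7% of all genes were higher with the ending ko. That share was 66.8% with the dimmest 40% left out, so it was lower among the dimmest genes. It was not counted for genes as dim as these, so the direction cannot be read as particular to the list. By the field 7 of the 16 were higher and 9 lower (median -0.035).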
